A study of Homo sapiens with 6 samples.

Results

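The nucleoporin, importin and exportin genes are a family defined by name: the protein-coding rows of the gene table whose symbol begins with NUP, NUPL, NUPR, KPNA, KPNB, IPO, XPO or TNPO followed by a number, together with CSE1L, POM121, NDC1, TPR, RAN and RANBP2. This rule used no measured value and found 54 genes among the 58302 in the table. The RNA came from the line MDA-MB-231-DR, which was derived for resistance to doxorubicin from MDA-MB-231, a human breast cancer line of the triple-negative type. Control cells gave 3 libraries, as did cells treated with Cyperotundone (CYT), a sesquiterpenoid of Cyperus rhizomes, and both groups were of this same resistant line. The study's methods give a CYT dose and time for its cell assays, but whether the sequenced cells had them is not stated, nor whether the resistant line is a clone. By the study's methods the resistant line was kept in medium with a low concentration of doxorubicin, an exposure that both groups share, and whether it went on during the CYT treatment is not stated. The labels do not say that replicates were separate cultures, so p-values measure the spread between these libraries, which may be technical.

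The nuclear pore complex is built from nucleoporins arranged as rings around a channel, with a cytoplasmic face and a nuclear basket. Importins and exportins carry proteins and RNAs through that channel and load or release cargo according to the state of the small GTPase Ran. In dividing cells the pore is taken apart at mitosis and rebuilt afterwards, and several nucleoporins and karyopherins also act at kinetochores or the spindle.

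Raw counts were summed over 14050849 to 17770102 reads in the control and 13056270 to 14106017 reads in the CYT libraries. Log2 CPM (counts scaled to library size) of CYT replicate 2 correlated with those of CYT replicates 1 and 3 at r = 0.90 and 0.899 across genes, against 0.967 between replicates 1 and 3. The mesenchymal markers of MDA-MB-231 (VIM, CD44, AXL, CAV1, MSN) summed to 529 to 552 FPKM in control and 273 to 280 FPKM in CYT libraries, where FPKM is the authors' measure scaled for gene length and library depth. VIM and AXL fell (log2 fold change -1.30 and -0.82). CAV1 and MSN lay below 0 but did not pass, and CD44 differed little (-0.19, not passing). Luminal markers summed to at most 3.47 FPKM, with ESR1 at no more than 4 counts and PGR at no more than 3, and basal mammary markers to at most 0.398 FPKM. Markers of dividing cells summed to 315 to 392 FPKM in control and 181 to 308 FPKM in CYT libraries, and 4 of 10 fell (PLK1, CCNA2, CDC20, CCNB1), against 12.9% of all genes tested. The other 6 did not pass, and some of them lay the other way: CDK1 had a log2 fold change of 1.12 (adjusted p = 0.0636, and 0.00775 with the replicate number as a block), MKI67 0.31 and AURKA 0.0066. In bulk RNA, fewer dividing cells and less RNA per cell cannot be told apart. Mitochondrial ribosomal RNA took 0.148 to 0.221% of control counts and 1.56 to 1.74% of CYT counts. Antisense and lincRNA genes took 0.461 to 0.540% of control counts and 0.938 to 1.01% of CYT counts. The part of these differences in the results below was not tested.

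Of the 54 genes, 50 had enough counts for testing. The counts of all 54 together made up 0.543 to 0.652% of each control library and 0.372 to 0.607% of each CYT library. With quasi-likelihood testing in edgeR, adjusted by Benjamini-Hochberg over all 15572 genes, 9 members fell after CYT, 1 rose and 40 did not pass. Those that fell were NUP85 and NUP37 of the outer ring, NDC1 of the pore membrane, NUP98, NUP153 of the basket, the import receptors KPNB1 and IPO8, and the export receptors XPO5 and XPO7. Among all genes tested, 12.9% fell and 15.7% rose, so the 9 of 50 that fell (18%) lay a little over the background and the 1 that rose (2%) well under it. The log2 fold change was below 0 in 37 of 50 members (74%, against 49.7% of all genes), with a median of -0.54 against 0.0064 for all genes and -0.07 for the 12755 protein-coding genes tested. Upper-quartile scaling moved the median of all genes to 0.16 and that of the members to -0.39, with 32 of 50 below 0. All 9 that fell, and the 1 that rose, also had an absolute log2 fold change over 1 (of the 9 lower, 6 with upper-quartile scaling or limma on log2(FPKM + 1) and 7 with protein-coding genes alone or at least 5 CPM), a criterion that 12.2% of all genes met downwards and 15.2% upwards.

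The count of calls moved with the model. With the replicate number as a block, 15 members fell and 2 rose, while 19.8% of all genes fell and 20% rose. Without CYT replicate 2, 16 fell and 1 rose (17.2% and 18.3% of all genes). Without control replicate 1, 6 fell and 0 rose (7.49% and 10.7%), without control replicate 2 also 6 and 0 (9.91% and 13.2%), and without control replicate 3, 5 and 0 (7.5% and 10%). Without CYT replicate 1, 4 fell and 0 rose (8.63% and 12.2%), and without CYT replicate 3, 4 and 1 (8.13% and 11.7%). DESeq2 gave 10 lower and 2 higher (15.1% and 18.8%), upper-quartile scaling 9 and 1 (10.4% and 18.5%), protein-coding genes alone 9 and 1 (12.5% and 13.4%), and a mean of at least 5 CPM 9 and 0 (12.2% and 12.8%). With limma, 9 fell and 0 rose at either pseudocount (13% and 15.2%, or 12.7% and 15.7%), and with no filter 11 and 0 (6.81% and 9.2%). Among the protein-coding genes of the first fit, 14.6% fell and 12.5% rose.

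**Figure D1:**
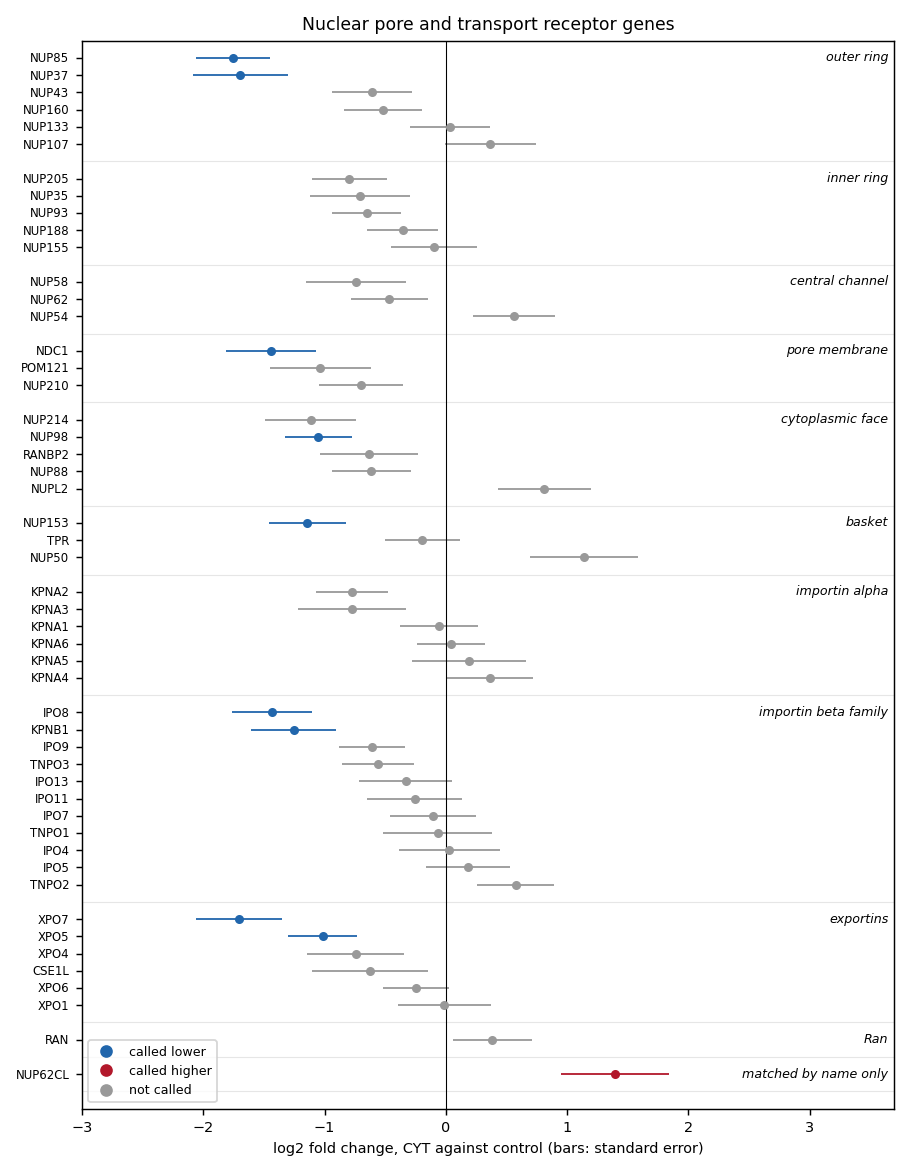
Log2 fold change of CYT over control for each of the 50 tested members, grouped by role on the vertical axis, with the log2 fold change on the horizontal axis, and bars of 1 standard error. Blue marks an adjusted p under 0.05 and lower, red the same and higher, grey neither. Most points lie left of 0, from -1.76 for NUP85 to 1.40 for NUP62CL, and the 9 members that fell are spread over the outer ring, membrane, cytoplasmic face, basket, import and export receptors.

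The promoters of 4 members are shown because these genes stand for different outcomes: NUP37 and NUP98 fell, KPNA2 missed the threshold but passed with the replicate block, and NUP50 was higher in every CYT library than in every control. Each is the 250 bases upstream of the gene's start in the RefSeq table for GRCh38.p14, 5′ to 3′ on the gene's strand. By the coordinates of the genes as counted, part of each stretch lies inside the gene, and most of it for KPNA2 and NUP98. The capitals mark the motifs found on either strand. For NUP37 (chr12:102120115-102120364, minus strand) they are, in order, a CHR element, a CCAAT box and an ETS motif, and for NUP98 (chr11:3797547-3797796, minus strand) a GC box, a CHR element, a pair of CCAAT boxes and further GC boxes. For KPNA2 (chr17:68035485-68035734, plus strand) they are GC boxes, a CHR element and CCAAT boxes, and for NUP50 (chr22:45163675-45163924, plus strand) NRF1 motifs, of which the first pair overlap, and an ETS motif.
NUP37: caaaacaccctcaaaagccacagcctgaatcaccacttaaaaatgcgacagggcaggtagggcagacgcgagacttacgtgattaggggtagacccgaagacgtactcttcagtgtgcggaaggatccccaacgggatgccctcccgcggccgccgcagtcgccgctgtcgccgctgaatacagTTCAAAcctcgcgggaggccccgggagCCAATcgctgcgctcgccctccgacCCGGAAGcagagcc
NUP98: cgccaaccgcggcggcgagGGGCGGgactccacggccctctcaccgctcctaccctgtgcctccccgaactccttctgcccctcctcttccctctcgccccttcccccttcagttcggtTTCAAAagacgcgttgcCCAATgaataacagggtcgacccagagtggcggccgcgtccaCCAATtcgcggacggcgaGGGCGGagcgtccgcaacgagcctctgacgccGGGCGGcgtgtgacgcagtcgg
KPNA2: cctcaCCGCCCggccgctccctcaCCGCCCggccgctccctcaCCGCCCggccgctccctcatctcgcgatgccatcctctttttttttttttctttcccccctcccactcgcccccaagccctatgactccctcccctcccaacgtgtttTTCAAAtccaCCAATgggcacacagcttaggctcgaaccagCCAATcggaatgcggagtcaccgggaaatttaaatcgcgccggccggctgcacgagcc
NUP50: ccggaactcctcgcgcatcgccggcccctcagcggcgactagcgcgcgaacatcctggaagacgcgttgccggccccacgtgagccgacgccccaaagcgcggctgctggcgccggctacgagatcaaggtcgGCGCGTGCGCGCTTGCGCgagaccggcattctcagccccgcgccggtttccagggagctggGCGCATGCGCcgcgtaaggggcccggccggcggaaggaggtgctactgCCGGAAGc

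Of the 54 members, 46 had a promoter in that table (KPNA4, KPNA5, KPNA7, KPNB1, NUP43, NUPR1, NUPR2 and XPO7 had no entry). The ETS motif CCGGAAG was in 26.1% of the members' promoters and in 8.52% of all 35116 promoters of the same length. The NRF1 motif was in 17.4% and 5.07%, the CCAAT box CCAAT in 47.8% and 32.0%, and the GC box GGGCGG in 52.2% and 42.6%. The cyclic AMP response element TGACGTCA was in 6.52% of members and 1.65% of all promoters. The E2F motifs TTTCGCGC, TTTGGCGC and TTTCCCGC together were in 2.17% and 2.32%. The CHR element TTTGAA, a motif known from promoters of genes of the late cell cycle, was in 19.6% and 13.3%. It was in 4 of the 7 members that fell and had a promoter (NUP37, NUP98, NUP153, NDC1). It was also in 5 of the 38 other tested members with a promoter, among them KPNA2. These 38 include NUP62CL, which rose. The CCAAT box was in 2 of the 7 and 19 of the 38, the GC box in 3 and 21, the ETS motif in 1 and 11, the NRF1 motif in 1 and 7, the cyclic AMP element in 0 and 3, and the E2F motifs in 0 and 1. NUP85 and IPO8, which fell and are not shown above, had no match to any of these motifs. A match describes these letters only.

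The outer ring, or Y complex, is the scaffold on both faces of the pore, and its tested members were NUP107, NUP133, NUP160, NUP85, NUP37 and NUP43. NUP85 and NUP37 fell, the other 4 did not pass, and the median log2 fold change of the 6 was -0.56, or -0.37 without CYT replicate 3. NUP85 (chr17:75205659-75235758, plus strand, hg38) was at 171, 128 and 134 CPM in the controls and at 52.5, 34.4 and 41.5 CPM after CYT. The means were 145 ± 23.1 and 42.8 ± 9.12 CPM (SD, n = 3 each), a log2 fold change of -1.76 ± 0.30 (SE), or 3.38-fold lower (adjusted p = 0.00307). Every CYT library lay far below every control library, and this was the lowest log2 fold change among the 50 tested members in this fit. XPO7 was lower with the replicate block (-1.78 against -1.77 for NUP85) and without CYT replicate 2 (-2.08 against -1.61). NUP37 (chr12:102073103-102120124) was at 28.1, 53.7 and 52.5 CPM in control and 9.94, 19.7 and 11.8 CPM in CYT libraries. It fell 3.24-fold, by 1.70 ± 0.39 on the log2 scale (adjusted p = 0.0111), although control replicate 1 lay much nearer to the CYT libraries than the other controls did. NUP107, a stem subunit of the Y, was at 44.3, 59.4 and 56.4 CPM in control and 45.4, 109 and 52.4 CPM in CYT libraries. Its log2 fold change was 0.37 ± 0.38 (adjusted p = 0.496), turned to -0.12 without CYT replicate 2, and the groups overlapped. NUP133 differed by 0.03 ± 0.33 (adjusted p = 0.949), and NUP43 by -0.61 ± 0.33 (adjusted p = 0.195). NUP43 had the highest FPKM of this ring over all 6 libraries, though NUP85 was higher in control (14.7 against 13.4 FPKM). PCMT1 shares 223 bp of exon with NUP43 on the opposite strand, or 5.03% of the exonic bases of NUP43. It had 192% of the NUP43 counts in control and 150% in CYT libraries. Reads in the shared stretch cannot be assigned to either gene if strand was not counted. NUP160 passed only without CYT replicate 2 and with GC content taken out (-0.83 and adjusted p = 0.0317 without that library, -0.52 with it).

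Protein subunits of the Y complex assemble together, and the make-up of their transcripts per length shifted between groups. NUP85 made up 32.3, 20.5 and 24.1% of the summed FPKM of the 6 genes in the controls and 16.0, 7.49 and 15.7% after CYT, or 39.7, 26.2 and 30.2% and 21.1, 10.2 and 20.7% per exonic length. NUP107 made up 7.31, 8.32 and 8.87% in control and 12.1, 20.7 and 17.3% in CYT libraries. The shares did not overlap between groups for either gene. Shares of a sum depend on each other, so the fall of NUP85 alone raises the shares of the other genes. The CPM of NUP107 itself overlapped between groups. The ratio of NUP85 to NUP107 FPKM was 4.41, 2.47 and 2.72 in control and 1.32, 0.361 and 0.905 in CYT libraries, a pair chosen after the values were seen.

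**Figure D2:**
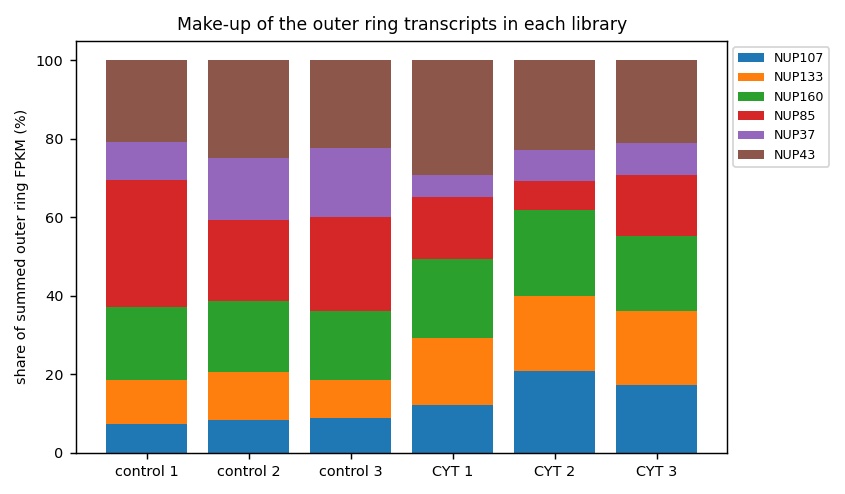
Share of the summed FPKM of 6 outer ring genes taken by each gene (vertical axis, percent), with one stacked bar per library. The NUP85 and NUP37 segments are narrower in the 3 CYT bars, and the NUP107 and NUP133 segments wider, than in the 3 control bars.

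The inner ring and the central channel gave no call. The inner ring genes NUP93, NUP155, NUP188, NUP205 and NUP35 had log2 fold changes from -0.80 to -0.10, with a median of -0.65, or -0.41 without control replicate 2. NUP188, the inner ring gene with the highest FPKM, was at 283, 190 and 189 CPM in control and 177, 144 and 196 CPM in CYT libraries (-0.36 ± 0.29 on the log2 scale, adjusted p = 0.396). NUP205, a large scaffold subunit, was at 126, 121 and 132 CPM in control and 75.7, 93.0 and 49.6 CPM in CYT libraries. These groups did not overlap, and its log2 fold change of -0.80 ± 0.31 had an adjusted p of 0.0828, or 0.0376 with the replicate block. Of the channel genes, which line the passage with FG repeats, NUP62 was at -0.46 (-0.14 without control replicate 1) on the log2 scale. NUP54 was at 0.56 (0.20 without CYT replicate 2) and NUP58 at -0.74. NUP58 passed with the block (adjusted p = 0.0357) and without CYT replicate 2 (-1.33, adjusted p = 0.00712). ATF5 overlaps NUP62 on the opposite strand over 626 bp of exon (10.4% of the exonic bases of NUP62). Its counts were 16.8% of those of NUP62 in control and 55.1% in CYT libraries. Reads in the shared stretch cannot be assigned to either gene if strand was not counted.

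Of the membrane nucleoporins that hold the pore in the envelope, NDC1 fell and NUP210 and POM121 did not pass. NDC1 (chr1:53765460-53838860) was at 75.6, 146 and 94.8 CPM in control and 33.1, 54.2 and 29 CPM in CYT libraries. It fell 2.72-fold, by 1.44 ± 0.37 on the log2 scale (adjusted p = 0.0179), with no overlap. The call was lost without control replicate 2 (adjusted p = 0.0711), CYT replicate 1 (0.0674) or CYT replicate 3 (0.0681). POM121 was at 97.6, 71.5 and 72.1 CPM in control and 52.9, 17.5 and 47.3 CPM in CYT libraries (-1.04 ± 0.42, adjusted p = 0.0902, and 0.0180 with the block). Its near copy POM121C had 176% of its counts in control and 192% in CYT libraries, so the split of reads between them is uncertain. NUP210, the membrane member with the highest FPKM, differed by -0.70 ± 0.35 (adjusted p = 0.161).

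On the cytoplasmic face, where export complexes are released, NUP98 fell and NUP214, NUP88, RANBP2 and NUPL2 did not pass. The NUP98 gene encodes NUP98 and, through a cleaved precursor, the outer ring protein NUP96, and gene counts do not separate these. NUP98 (chr11:3671083-3797792) was at 152, 118 and 136 CPM in control and 72.9, 65.7 and 56.9 CPM in CYT libraries, with no overlap. It was 2.07-fold lower, at -1.05 ± 0.28 (adjusted p = 0.0198). Without control replicate 1 or 3, or CYT replicate 1 or 3, the adjusted p was 0.0752, 0.0728, 0.0541 and 0.0756. NUP214, the partner of NUP88 in binding export receptors, was at 63.4, 28.3 and 38.8 CPM in control and 25.8, 15.2 and 19.2 CPM in CYT libraries. Its log2 fold change was -1.11 ± 0.38, with an adjusted p of 0.0516, and 0.00796 with the block. Over the 16 alternatives the log2 fold change of NUP214 ran from -1.34 to -0.58. NUP88, the member of this face with the highest FPKM, was at 60.7, 86.9 and 109 CPM in control and 62.3, 62.4 and 42.9 CPM in CYT libraries (-0.61 ± 0.33, adjusted p = 0.185), and the groups overlapped. On the opposite strand RPAIN shares 520 bp (9.82%) of NUP88 exon, with 23.7% of the NUP88 counts in control and 60.7% in CYT libraries. RABEP1 shares 468 bp (8.84%), with 39.6% and 36.4%. The limit of strand holds for reads in these stretches. NUPL2, whose product binds GLE1, differed by 0.81 ± 0.39 (adjusted p = 0.144), and by 0.38 without CYT replicate 2. RANBP2, a SUMO ligase that binds Ran, differed by -0.63 ± 0.40 (adjusted p = 0.267), and by -1.10 without CYT replicate 2 (adjusted p = 0.0299). Counts of its RGPD copies were 48.2% of its own in control and 87.6% in CYT libraries, which leaves its value uncertain.

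The nuclear basket genes differed in direction, with NUP153 lower and NUP50 at a value above 0 that did not pass. NUP153, which anchors the basket and binds importins, was at 70.7, 91.6 and 69.3 CPM in control and 38.0, 42.8 and 24.2 CPM in CYT libraries (chr6:17615035-17706834). It fell 2.20-fold, by 1.14 ± 0.32 on the log2 scale (adjusted p = 0.0256), with no overlap. Leaving out any one library other than CYT replicate 2 raised the adjusted p to between 0.0598 and 0.0917. NUP50, a cofactor that helps importin alpha release cargo, was at 49.7, 86.0 and 52.0 CPM in control and 88.5, 236 and 89.9 CPM in CYT libraries. The lowest CYT library lay just above the highest control, and CYT replicate 2 set the size: 1.14 ± 0.44 with all libraries (adjusted p = 0.0814) and 0.51 without it (adjusted p = 0.214). With the block the log2 fold change was 1.03 (adjusted p = 0.0123). TPR, the basket filament, differed by -0.19 ± 0.31 (adjusted p = 0.676).

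Per length, NUP153 was the most abundant basket transcript in each control and NUP50 in each CYT library. NUP153 took 64.0, 60.4 and 62.5% of the summed basket FPKM in control and 40.2, 24.1 and 30.5% in CYT libraries, or 58.3, 53.6 and 56.7% and 33.2, 18.5 and 24.3% per exonic length. The ratio of NUP50 to NUP153 FPKM was 0.346, 0.463 and 0.369 in control and 1.15, 2.71 and 1.83 in CYT libraries, again a pair chosen after its values were seen. The antisense gene AL138724.1 overlaps 558 bp of NUP153 exon, and its counts went from 79, 113 and 109 in control to 651, 188 and 567 in CYT libraries, which is 7.87% and 97.3% of those of NUP153. The strand setting of the counting is not known here, so the strand of reads in the shared stretch (9.25% of the exonic bases of NUP153) cannot be told.

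**Figure D3:**
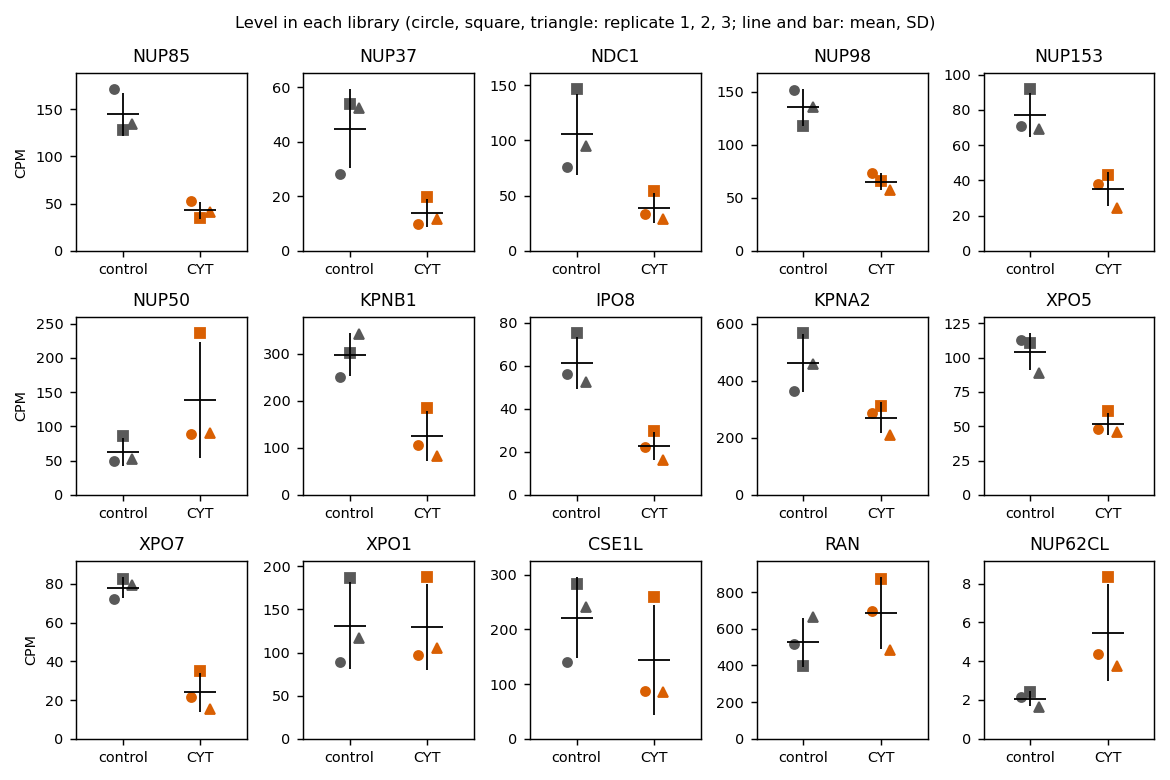
TMM-normalized CPM (vertical axes, linear from 0) of 15 members in each of the 3 control (grey) and 3 CYT (orange) libraries, with a circle, square and triangle for replicates 1, 2 and 3 and lines for mean and SD. The CYT points of NUP85 (34.4 to 52.5 CPM) and XPO7 (15.3 to 35.1 CPM) sit well below every control, while those of XPO1 overlap them.

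The importin alpha proteins read the classical import signal and bridge it to KPNB1, and none of the 6 tested genes passed. KPNA2, a proliferation-linked importin alpha and the member with the highest mean FPKM over all libraries, was at 365, 566 and 457 CPM in control and 288, 312 and 210 CPM in CYT libraries (chr17:68035519-68046842). The means were 462 ± 101 and 270 ± 53.4 CPM, with every CYT library below every control. Its log2 fold change of -0.78 ± 0.30 had an adjusted p of 0.0776, and 0.0405 with the replicate block. KPNA3 differed by -0.78 ± 0.45 (adjusted p = 0.221, and 0.0239 with the block), and by -1.39 without CYT replicate 2 (adjusted p = 0.0130). KPNA1, KPNA4, KPNA5 and KPNA6 lay between -0.05 and 0.36, and each changed sign in 1 or more alternatives. On the opposite strand AC083798.2 shares 1377 bp of KPNA1 exon, with 2.16% of the KPNA1 counts in control and 16.5% in CYT libraries. KRT8P12 shares 142 bp of KPNA4 exon, with 5.42% and 31.6% of the KPNA4 counts. Reads in these stretches cannot be assigned if strand was not counted. KPNA2 took 76.3, 78.8 and 79.6% of the importin alpha FPKM in control and 73.2, 64.9 and 69.4% in CYT libraries.

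Of the 11 importin beta family genes, KPNB1 and IPO8 fell, and the median log2 fold change was -0.26, or -0.065 without control replicate 2, -0.076 without CYT replicate 1, -0.40 and -0.59 without CYT replicate 3 or 2, and -0.11 with upper-quartile scaling. KPNB1, the importin beta that carries importin alpha and its cargo, was at 251, 301 and 341 CPM in control and 106, 185 and 82.9 CPM in CYT libraries (chr17:47649476-47685505). It fell 2.39-fold, by 1.26 ± 0.35 on the log2 scale (adjusted p = 0.0254). CYT replicate 2 was the highest of its group but below each control, and the adjusted p was between 0.0620 and 0.0934 without control replicate 2 or 3 or CYT replicate 1 or 3. IPO8, linked to import of Argonaute and SMAD proteins, was at 56.2, 75.1 and 52.6 CPM in control and 22.2, 29.6 and 16.2 CPM in CYT libraries (chr12:30628988-30695986). It fell 2.70-fold, by 1.43 ± 0.33 (adjusted p = 0.0112), and passed in each alternative run. The other importins IPO4, IPO5, IPO7, IPO9, IPO11 and IPO13 lay between -0.61 and 0.18. IPO7, a close relative of IPO8, differed by -0.11 ± 0.35 (adjusted p = 0.853).

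The transportins did not pass. TNPO3, the importer of phosphorylated SR splicing factors, was at 75.8, 76.8 and 49.4 CPM in control and 40.8, 48.1 and 48.2 CPM in CYT libraries (-0.56 ± 0.30, adjusted p = 0.188). Control replicate 3 lay close to the CYT libraries, although the groups did not overlap. TNPO2, which imports hnRNP proteins, was at 146, 101 and 97.3 CPM in control and 183, 124 and 206 CPM in CYT libraries (0.58 ± 0.32, adjusted p = 0.20), and at 0.77 without CYT replicate 2 (adjusted p = 0.0421). TNPO1 differed by -0.07 ± 0.45 (adjusted p = 0.928). IPO4 was at 0.03 ± 0.42 (adjusted p = 0.968). IPO4 (-0.40 to 0.38 over the 16 alternatives), TNPO1 (-0.67 to 0.36) and IPO7 (-0.48 to 0.16) had no stable sign. Another gene on the same strand, AL136295.4, covers 69.3% of the exons of IPO4.

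The 6 exportins had log2 fold changes from -1.70 to -0.01, the last of them for XPO1, whose sign turned under DESeq2, limma and other scalings, and only XPO7 and XPO5 passed. XPO7, an exportin with a broad cargo range, was at 72.0, 82.7 and 79.3 CPM in control and 21.4, 35.1 and 15.3 CPM in CYT libraries (chr8:21919671-22006585). It fell 3.26-fold, by 1.70 ± 0.36 on the log2 scale (adjusted p = 0.00707), and passed in each alternative run. XPO5, which exports precursor microRNAs, was at 113, 111 and 88.7 CPM in control and 48.2, 60.9 and 45.8 CPM in CYT libraries (chr6:43522330-43576075). It fell 2.02-fold, by 1.01 ± 0.29 (adjusted p = 0.0257), and without any one library other than CYT replicate 2 the adjusted p was between 0.0588 and 0.0954. POLR1C shares 348 bp (4.08%) of XPO5 exon on the opposite strand, with 36.6% of the XPO5 counts in control and 102% in CYT libraries. The same limit of strand holds for reads in that stretch.

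XPO1 (CRM1), the main exporter of proteins with a leucine-rich signal, was at 88.7, 187 and 117 CPM in control and 96.8, 187 and 106 CPM in CYT libraries (chr2:61477849-61538626). The means of 131 ± 50.5 and 130 ± 49.8 CPM lay within the spread of either group, and the log2 fold change was -0.01 ± 0.38 (adjusted p = 0.985). Replicate 2 was the highest library of both groups. CSE1L, which returns importin alpha to the cytoplasm and is the exportin with the highest FPKM, was at 140, 283 and 241 CPM in control and 87.0, 259 and 85.1 CPM in CYT libraries. Its difference of -0.62 ± 0.48 (adjusted p = 0.358) rested on the spread of CYT replicate 2, without which it was -1.37 (adjusted p = 0.0134). XPO6, the exporter of actin and profilin, differed by -0.25 ± 0.27 (adjusted p = 0.535) and XPO4 by -0.74 ± 0.40 (adjusted p = 0.194).

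RAN, the GTPase that gives transport its direction, was at 515, 397 and 665 CPM in control and 700, 875 and 485 CPM in CYT libraries (chr12:130871879-130877678). The means were 526 ± 134 and 687 ± 195 CPM, the groups overlapped, and the log2 fold change was 0.39 ± 0.32 (adjusted p = 0.400), or 0.18 without CYT replicate 2, 0.59 without control replicate 3 and 0.13 with GC content and length taken out. Set against RAN, KPNB1 was low in all CYT libraries: the ratio of their FPKM was 0.496, 0.774 and 0.524 in control and 0.155, 0.216 and 0.174 in CYT libraries, a pair chosen after its values were seen. By mean FPKM in control, KPNA2 (100.04) led RAN (46.8), CSE1L (42.9), NUP210 (30.1) and KPNB1 (27.3). In CYT libraries RAN (63.1) and KPNA2 (59.2) overlapped, and KPNB1 was at 11.8. These orders depend on the gene length used: the length implied by count and FPKM was 1.04 to 3.48 times the exonic length (GENCODE), 2.30 times for RAN and 1.47 times for KPNA2. As CPM per kilobase of exon, KPNA2 was at 147 and RAN at 109 in control, and RAN at 142 and KPNA2 at 86.0 in CYT libraries, where the lowest RAN value (100.6) lay just above the highest KPNA2 value (99.5). On that scale NUP85, NUP50 and IPO4, not NUP43, NUP153 and KPNB1, had the highest mean of the outer ring, basket and importin beta family. A gene's length is the same in every library, so scaling by it does not change a gene's own fold change. A trend with length that differs between libraries can change it, and the GC content and length correction takes such a trend out.

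Several genes of the name rule are outside the pore or at the limit of detection. NUP62CL, whose name marks its likeness to NUP62, was the member that rose. It was at 2.17, 2.40 and 1.65 CPM in control and 4.37, 8.33 and 3.73 CPM in CYT libraries (chrX:107123427-107206433), from 23 to 45 and 47 to 117 counts. The log2 fold change was 1.40 ± 0.44, or 2.63-fold (adjusted p = 0.0409). It passed in 6 of 15 alternatives, was not called without any one library other than CYT replicate 3 (adjusted p between 0.0602 and 0.139) and had its highest value in CYT replicate 2. NUPR1, a stress-induced chromatin protein that shares only its prefix with the nucleoporins, had 11, 10 and 17 counts in control and 2, 0 and 0 in CYT libraries. Against a floor of 3 counts per library it was at least 3.67-fold lower. It was left out by the filter on low counts, without which its adjusted p was 0.0204. NUPR2 had 0 counts throughout, NUP210L had 0 in each control and 4, 4 and 2 in CYT libraries, and KPNA7 had at most 10.

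Across the 50 tested members, 18 had every CYT library below every control and 2 (NUP62CL and NUP50) the reverse, against 22.7% and 23.4% of all genes. The smallest p of a two-sided exact permutation test of 3 against 3 is 0.1, so separation alone cannot pass. Replicate 2 was the highest library of both groups in 28 members (56.0%, against 27.7% of all genes). These 28 had a median GC content of 40.0%, and all tested genes of that pattern 41.2%. The 6 members lowest in replicate 2 of both groups (NUP214, XPO6, IPO13, NUP85, NUP210 and POM121) had a median of 56.0%. They were 12% of the members, against 27.9% of all genes, whose median was 57.7%. With GC content and length taken out, 24 members fell and 3 rose, while 26.7% and 20.7% of all genes did, and with the block added 23 fell and 2 rose (26.1% and 20.2%). The part of base composition in these results was not tested further.

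Genes that work beside the family were read in the same fit, in which 12.9% of all genes fell and 15.7% rose. Among 7 other pore genes, AAAS, the pore protein aladin (-1.44, adjusted p = 0.0283) and SEH1L (-0.998, adjusted p = 0.0372), an outer ring subunit, fell, and GLE1, an mRNA export factor of the cytoplasmic face, rose (1.01, adjusted p = 0.0210). Their median was -0.70. Among 12 genes of the Ran cycle and receptor helpers, XPOT, the tRNA exportin, fell by 1.82 (adjusted p = 0.00498), RANGAP1, the GTPase activator of Ran, by 1.16 (adjusted p = 0.0454), and HIKESHI, the importer of heat shock protein, by 1.08 (adjusted p = 0.0338). None rose, and the median was -0.26, or -0.11 with upper-quartile scaling, -0.39 without control replicate 2 and -0.45 without CYT replicate 3. Of the 10 lamina and inner membrane genes the B-type lamins LMNB2 (-1.71, adjusted p = 0.0121) and LMNB1 (-1.09, adjusted p = 0.0228) fell, with a median of -0.46. With the replicate block LMNA (-1.01, adjusted p = 0.00986) also fell and LEMD3 (0.98, adjusted p = 0.0116) rose, and the genes that fell came to 4 of the other pore genes and 5 of the helpers, in a fit where the share of all genes that fell went from 12.9% to 19.8%. Beside the lamins, the summed markers of dividing cells given above were lower in each CYT library than in each control, although CDK1 (1.12) and MKI67 (0.31) of that list had values above 0. Several of these calls were lost when 1 library was left out. AAAS had adjusted p values of 0.106, 0.0869 and 0.0766 without control replicate 1, control replicate 3 or CYT replicate 1. SEH1L (0.0742 to 0.124), GLE1 (0.0558 to 0.0911) and HIKESHI (0.0634 to 0.131) did not pass without any one library other than CYT replicate 2, nor RANGAP1 (0.0508 to 0.163) without any one other than CYT replicate 3. LMNB1 was at 0.0660 to 0.0893 without any one control or CYT replicate 3.

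The 21 mRNA export genes held the widest differences of these lists. NXF1, the bulk mRNA export receptor, was at 99.6, 58.3 and 75.6 CPM in control and 542, 280 and 539 CPM in CYT libraries. It rose 5.82-fold, by 2.54 ± 0.37 on the log2 scale (adjusted p = 0.00158). NXT2, a cofactor related to the NXF1 partner NXT1, rose 4.48-fold, from 10.7, 26.3 and 17.3 to 44.3, 128 and 71.6 CPM (2.16 ± 0.47, adjusted p = 0.00858). Against these, 5 of the 21 fell (12.9% of all genes did), led by DDX39A (-1.67, adjusted p = 0.00655), THOC6 (-1.56, adjusted p = 0.00788) and DDX39B (-1.29, adjusted p = 0.00929), which load export factors on mRNA. The ratio of DDX39B to NXF1 FPKM was 3.50, 3.83 and 3.73 in control and 0.231, 0.374 and 0.224 in CYT libraries, a pair chosen after its values were seen. The median of the list was -0.41 (-0.26 with upper-quartile scaling, -0.67 with GC content and length taken out), and with the replicate block, under which 19.8% of all genes fell, 8 of the 21 did.

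**Figure D4:**
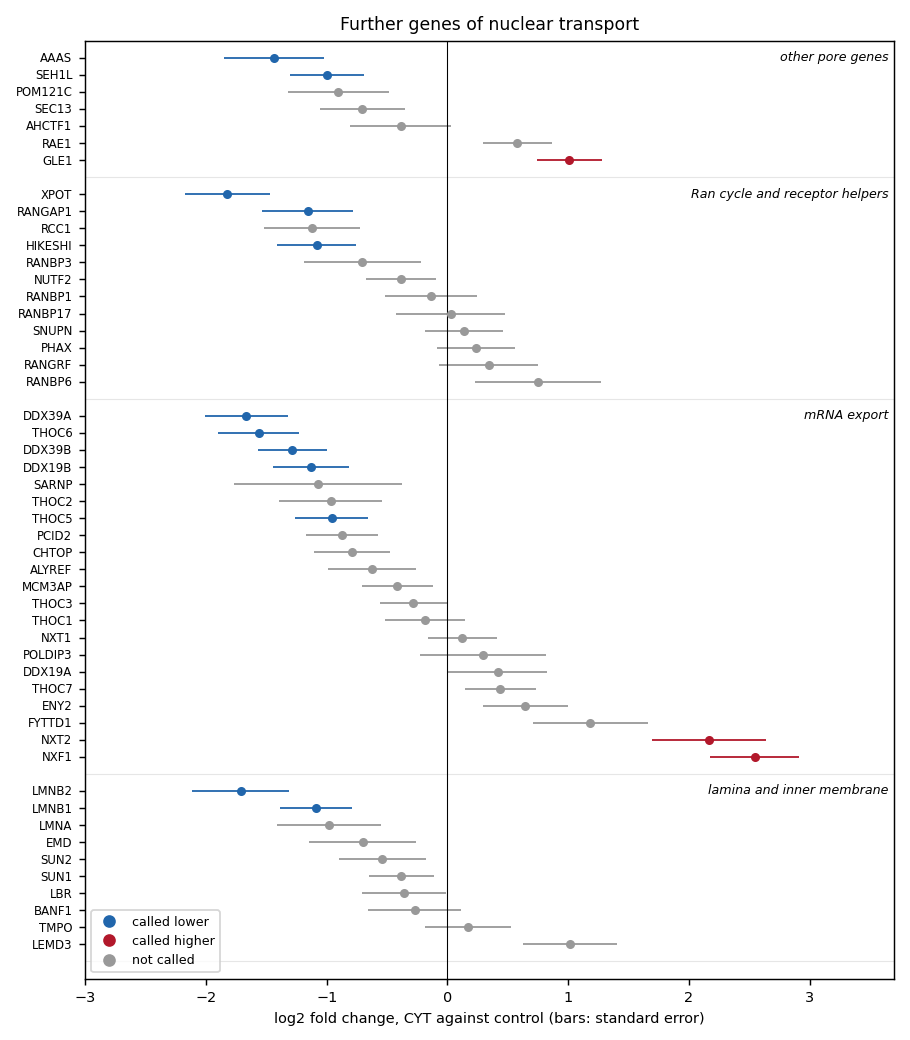
Log2 fold change of CYT over control (horizontal axis, bars of 1 standard error) for the tested genes of the 4 further lists: other pore genes, Ran cycle and receptor helpers, mRNA export, and lamina and inner membrane. Blue (lower) and red (higher) mark an adjusted p under 0.05, and NXF1 (2.54) and NXT2 (2.16) lie far to the right of the rest.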

How the data were processed

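RNA of 3 control and 3 CYT-treated MDA-MB-231-DR samples was sequenced, and the labels gave the groups. Per gene, the authors deposited raw counts and FPKM values. By the study's methods, reads were aligned with Hisat2 and FPKM was obtained with Stringtie, and the submitters' notes name FastQC 0.12.1 and hg38. For the raw counts, the program, annotation and strand setting are not given in the sources used here. For the 50 tested members, the gene length that the deposited values imply varied by no more than 0.00174% among libraries.

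Counts were tested with edgeR 4.0.16 (limma 3.58.1, R 4.3.3): TMM, filterByExpr with a minimum count of 10, the quasi-likelihood F test of CYT against control over 15572 genes, and Benjamini-Hochberg adjustment over all of them. Calls had an adjusted p under 0.05. CPM values were computed from the deposited counts with TMM library sizes, and log2 fold changes come from the fit, with standard errors from the F statistic. FPKM was used for levels between genes. Total counts were 13056270 to 17770102, and the floor of 3 counts covers counting error only. The steps were tested on simulated data.

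Same-numbered samples deviated together (correlations of deviations from the group means of 0.166, 0.430 and 0.117 for replicates 1, 2 and 3), so the fit with the replicate number as a block is given beside the members whose call it changes, and as counts for the further lists. The labels do not state what a number marks, and control 1 with CYT 3 (0.277) and control 3 with CYT 1 (0.189) correlated more than pairs 1 and 3. DESeq2 1.42.0, upper-quartile scaling, other filters, limma on log2(FPKM + 1) and log2(FPKM + 0.1), and leaving out each library were alternatives. A GC content and length correction over 15542 genes, and levels per exonic length, were added after the data were seen. The members and gene lists were chosen with earlier results of these data known. Named were KPNA2, XPO1 and RAN, each member called, the member of each role list with the highest mean FPKM, and up to 3 called genes in each direction of each further list. Other members are named as examples and were chosen after their values were seen.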

Additional observations from a re-analysis of the deposited data

How the results depend on the processing

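NUP85, NUP37, IPO8 and XPO7 passed in all 16 alternatives. NDC1, KPNB1, NUP98, NUP153 and XPO5 lost the call only when 1 library was left out. The cause of the moves below was not tested.

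With the replicate block 15 members fell and 2 rose (NUP58, NUP214, KPNA2, KPNA3, NUP205, POM121 and NUP50 were added and no other member's call changed), and 4 other pore, 5 helper and 8 mRNA export genes fell, against 19.8% of all genes. With GC content and length correction (26.7% of all genes lower, 26.1% with the block) 24 fell and 3 rose, with the block added 23 and 2, and these gave 4 other pore, 10 mRNA export and 5 lamina genes lower, and with the block 5 helpers. One lamina gene rose under these fits and DESeq2. DESeq2 gave 2 members higher, and limma, no filter and a mean of at least 5 CPM gave 0. Upper-quartile scaling, at least 5 CPM, protein-coding genes alone, limma and an absolute log2 fold change over 1 left 1 other pore gene lower, and of these upper-quartile scaling and at least 5 CPM left 1 helper. No filter left 0 other pore genes higher. Their median was -0.55 under upper-quartile scaling.

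Leaving out each library in turn gave 4 to 16 members lower and 0 to 1 higher, 0 to 2 other pore genes lower and 0 to 1 higher with medians from -0.83 to -0.53, 1 to 3 helpers, 3 to 7 mRNA export and 1 to 2 lamina genes lower.

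XPO1 changed sign: 0.013 with DESeq2, 0.13 with upper-quartile scaling, 0.086 at 5 CPM, 0.052 with protein-coding genes, 0.0094 and 0.013 with limma, and -0.37 to 0.37 without single libraries. NUP133 was at -0.049 with no filter, -0.046 and -0.043 with GC correction, and -0.25 to 0.24 without single libraries. NUP107 was at -0.12 to 0.60 without single libraries.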

Other observations

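Rows outside the protein-coding rule were also counted. NUP50-DT, a long intergenic RNA whose annotated end overlaps the region upstream of NUP50, was at 30.7, 27.7 and 23.8 CPM in control and 42.8, 26.1 and 47.7 CPM in CYT libraries (log2 fold change 0.50, adjusted p = 0.269 by edgeR), so CYT replicate 2, the library with the highest NUP50, had the lowest NUP50-DT of its group. IPO9-AS1 had 0, 0 and 7 counts in control and 25, 0 and 11 counts in CYT libraries. The pseudogenes of KPNA2 together had 0.486% of its counts in control and 0.756% in CYT libraries, and those of RAN 1.75% and 1.83%.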
